A study of Mus musculus with 10 samples.

Results

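The genes described here encode the CD3 chains of the T cell receptor complex (Cd3g, Cd3d, Cd3e and Cd247) and 4 further receptors and adaptors of the T cell surface (Trat1, Cd2, Cd5 and Cd6). Their chromatin was followed through every ATAC-seq peak whose deposited gene symbol is one of these 8 names, which gave 88 of the 61571 annotated peaks. ATAC-seq uses a transposase that inserts adapters where DNA is open, so the number of reads in a peak measures accessibility. Of the 88 peaks, 63 held enough reads to be tested, among 34910 tested peaks in all. All 8 genes were tested as sums over their peaks, among 12489 genes.

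The samples were naive T cells, sorted on markers that include CD3+, CD4+, CD25- and CD44 low or negative, from mouse spleen and lymph node. All mice had the genotype Satb1fl/fl x CD4-CreERT2wt/+, in which both Satb1 alleles are floxed and a Cre that tamoxifen activates (CreERT2) is linked to CD4. The KO group had received tamoxifen (5 libraries), and the WT group had not been treated (5 libraries), so Satb1 deletion and exposure to tamoxifen cannot be told apart. Each library came from 60000 cells. The sort selected cells for surface CD3 itself, so cells without the CD3 complex were not sampled. The labels give neither age nor sex, and whether every library stands for 1 animal is not stated, so a p-value here sets group differences against the spread among libraries, which may be technical.

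SATB1 is a nuclear protein that binds AT-rich DNA and organises chromatin loops in developing and mature T cells. The CD3 chains pair as gamma with epsilon, delta with epsilon, and zeta with zeta (the product of Cd247), and they carry the signal of the antigen-binding chains into the cell through tyrosine motifs in their tails. TRAT1 is a membrane adaptor that associates with this complex, CD2 is an adhesion receptor that binds CD48 on other cells in mice, and CD5 and CD6 are related scavenger-receptor proteins that temper signalling. Cd3g, Cd3d and Cd3e lie side by side on chromosome 9 and are open in T cells, and Cd5 and Cd6 lie near each other on chromosome 19.

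The start sites of Cd3g and Cd3d are 1355 bp apart and point away from each other, and that of Cd3e lies 27804 bp beyond Cd3d. The 150 bases before the RefSeq start site are given below (GRCm38.p6, 5′ to 3′ in the direction of the gene). They are shown for Cd3g, the only gene of the CD3 group with a single tested peak. They are also shown for the 3 genes that had a peak passing the test. The sequences of the 3 peaks that rose were not at hand. The motifs and base content therefore describe only start sites, whose peaks did not pass the test. RefSeq promoters matched 6 of the 8 genes. Capitals mark matches, on either strand, to 6 short motifs: TGTGGT for RUNX factors, AGGAAG for ETS factors, AGATAA for GATA factors, CTTTGA for TCF factors, GGGCGG for SP1 and TATAAA for the TATA box. The promoters below come from chr9:44980432-44980581, minus strand (Cd3g), chr9:44981636-44981785, plus strand (Cd3d), chr16:48772063-48772212, minus strand (Trat1), and chr19:10738975-10739124, minus strand (Cd5).
Cd3g: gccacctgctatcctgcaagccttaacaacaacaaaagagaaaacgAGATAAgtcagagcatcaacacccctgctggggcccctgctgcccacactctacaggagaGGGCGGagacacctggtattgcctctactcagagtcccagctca
Cd3d: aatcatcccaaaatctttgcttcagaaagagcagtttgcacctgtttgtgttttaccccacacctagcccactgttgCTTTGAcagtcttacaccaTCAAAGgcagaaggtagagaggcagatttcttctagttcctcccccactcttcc
Trat1: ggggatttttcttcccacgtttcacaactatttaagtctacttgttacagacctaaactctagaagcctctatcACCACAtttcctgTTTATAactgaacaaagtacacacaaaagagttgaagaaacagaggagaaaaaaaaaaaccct
Cd5: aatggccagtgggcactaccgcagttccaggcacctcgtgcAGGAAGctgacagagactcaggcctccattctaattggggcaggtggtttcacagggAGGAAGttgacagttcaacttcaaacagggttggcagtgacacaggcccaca

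All 150 of these bases lie inside the start-site peak for Cd3g, Trat1 and Cd5, and 123 of them do for Cd3d. The RefSeq start used here for Trat1 is 106 bp from the deposited one, while the RefSeq gene body of Trat1 reaches farther, to chr16:48810547. Counted back from the start site, Cd3g holds a GATA match at -104 and an SP1 match at -44, and Cd3d holds TCF matches at -73 and -54. Trat1 holds a RUNX match at -76 and a TATA match at -63, and Cd5 holds ETS matches at -109 and -52. Beyond the printed bases but within 250 of the start, Cd3d also holds an ETS match at -198 and Trat1 a TCF match at -220. Among all 32851 RefSeq promoters (250 bases each), 14.05% hold the RUNX letters, 29.48% ETS, 9.99% GATA, 13.83% TCF, 32.74% SP1 and 12.37% TATA, so each of these matches is shared with many promoters. The letters CANNTG (E-box, in 66.22% of promoters), CAGCTG (13.0%, a form of the E-box) and TGACGTCA (1.55%) were also searched, and only CANNTG, which is not capitalised, occurs in the printed stretches. Over 250 bases the A and T content was 64.8% for Trat1, 58.8% for both Cd3d and Cd247, 48.4% for Cd3g, 43.2% for Cd5 and 42.8% for Cd3e, beside a median of 47.6% over all promoters (quartiles 38.8% and 54.8%).

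Reads in peaks totalled 673398 to 2184717 per library (Sample_2270_KO and Sample_2272_KO), and the 8 genes held 0.107% to 0.121% of them. Levels are given as CPM (in-peak read counts scaled to a common total, after TMM scaling), with the mean and SD of the 5 libraries of a group. Log2 fold changes, KO over WT, carry the SE from edgeR. An adjusted p is edgeR's quasi-likelihood p after Benjamini-Hochberg adjustment over all tested peaks or all tested genes, with a threshold of 0.05. Of the 20 library pairs within a group, 6 differed by less than sampling noise and 14 differed beyond it (chi-square test over peaks), and the results of the 8 genes that passed are therefore also given with such libraries merged, which leaves 3 KO and 2 WT units counted once each. Satb1 itself had 4 of 16 tested peaks higher and 0 lower by edgeR (1 lower before adjustment, at p under 0.05), and summed over its peaks it had 388 ± 11.96 CPM in KO against 338 ± 17.6 CPM in WT (edgeR adjusted p = 0.0250). Which exons are floxed is not stated, so its accessibility does not check the group labels.

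In the chromatin of the 8 genes, 3 single peaks rose and the other 60 tested peaks did not pass the test. Of the 63 tested peaks, 3 were higher in KO (4.76%) and 0 were lower, against 2.94% higher and 0.911% lower among all tested peaks. Before adjustment, 6 were higher and 1 was lower at p under 0.05, counts given without a share over all peaks. DESeq2 and limma-voom called 0 lower. The libraries of the 2 groups did not overlap in 3 of the 63 peaks (4.76%), the same 3 that passed, against 3.97% of all tested peaks. These shares are close to the background, so they are not a result about these genes as a group. The median log2 fold change was -0.01 over the 63 peaks, with 28 above 0, and -0.01 over all tested peaks.

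Summed over peaks, 1 of the 8 genes, Trat1, was higher in KO and 0 were lower by edgeR. An unadjusted p under 0.05 was reached by 2 in the higher and 0 in the lower direction, counts given without a share over all genes. Among all tested genes 1.65% were higher and 0.52% lower, and the groups did not overlap in 3.07% of genes and in 0 of these 8. DESeq2 called 0 of the 8 genes in either direction, and limma-voom called 1 higher and 0 lower. The plot of gene sums by library shows the groups overlapping for every one of the 8 genes.

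**Figure D1:**
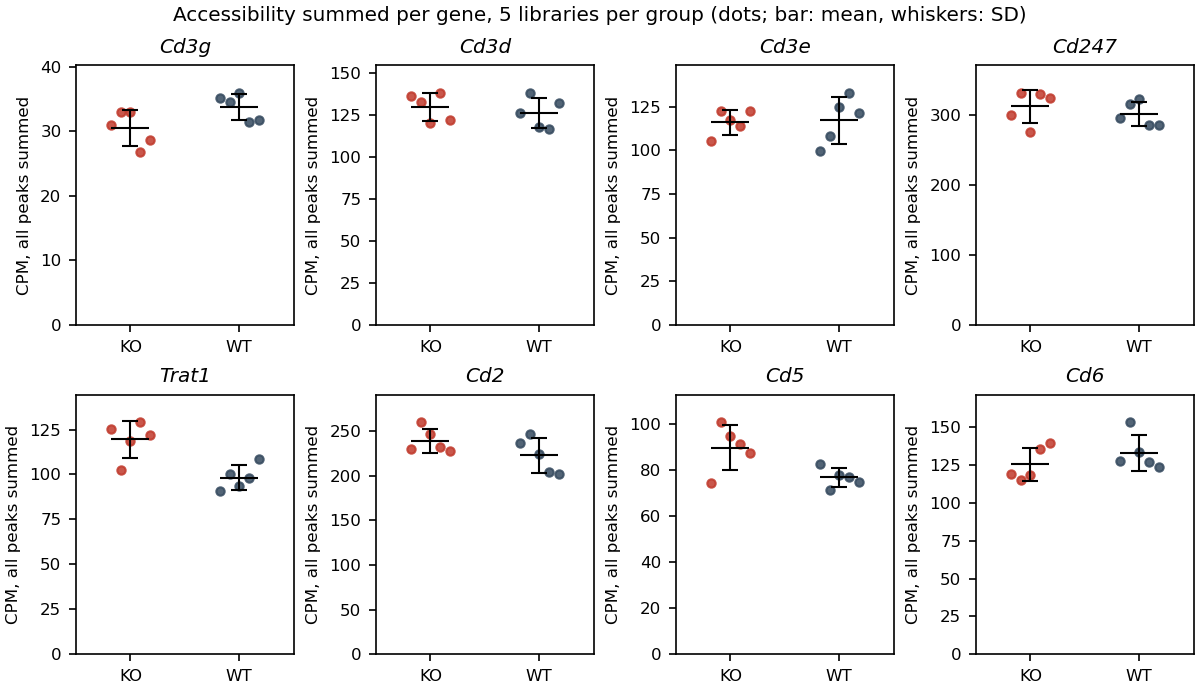
Accessibility summed over all peaks of each gene (CPM, vertical axis from 0) in the 5 KO and 5 WT libraries, with dots for libraries, a bar for the mean and whiskers for the SD. Trat1 had 120 ± 10.2 CPM in KO against 98.2 ± 6.93 CPM in WT, and the groups overlap in all 8 panels.

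The 3 peaks that rose all lay outside promoters. None of the 15 tested promoter peaks of the 8 genes was called in either direction by edgeR, DESeq2 or limma-voom, 0 of them had an unadjusted p under 0.05, their median log2 fold change was -0.05, and 3 of them lay above 0. Among all tested promoter peaks, 203 of 16147 (1.26%) were higher and 0.341% lower, with a median of -0.01 and 48.2% above 0. Of the 48 tested peaks elsewhere, 3 were higher (6.25%), with a median of 0.00 and 25 above 0. Among all tested peaks outside promoters, 823 of 18753 (4.39%) were higher. By annotation class, 2 of 19 tested distal intergenic peaks and 1 of 21 tested intronic peaks passed, and 0 of 6 downstream and 0 of 2 3' UTR peaks did. The plot of peak changes against distance shows the 3 red points away from each start site.

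**Figure D2:**
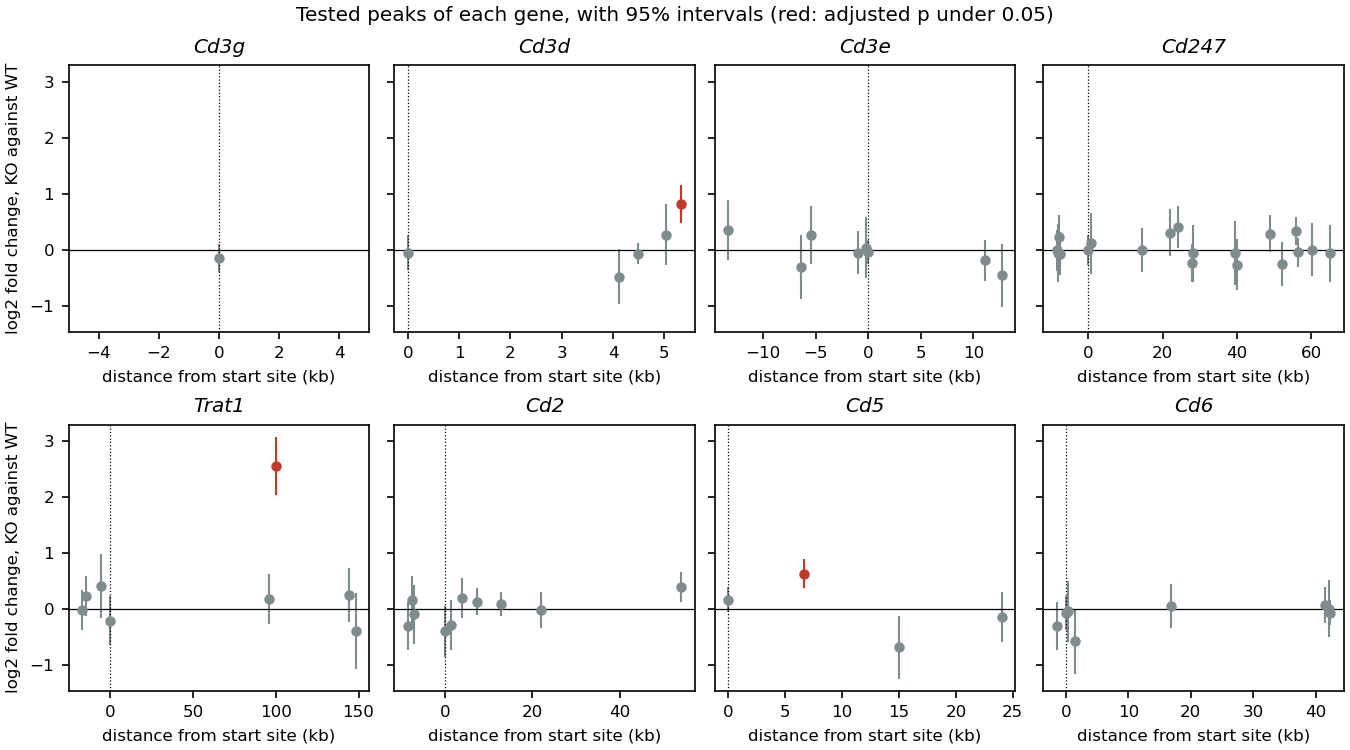
Log2 fold change (KO against WT, vertical axis) of the 63 tested peaks against their distance in kb from the start site of their gene (dotted line), with 95% intervals, 1 panel per gene. Red marks the 3 peaks with an adjusted p under 0.05, at 5330 bp (Cd3d), 99922 bp (Trat1) and 6643 bp (Cd5).

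Cd3g, which encodes the gamma chain, had 2 peaks, 1 of them tested, and 92.1% of its signal lay in promoter peaks. Its start-site peak (chr9:44980346-44980590) read 29.7, 31.1, 30.2, 25.1 and 26.3 CPM in the KO libraries (Sample_2268_KO to Sample_2272_KO, in order here and in each list that follows) and 34.5, 30.6, 31.8, 27.9 and 28.8 CPM in the WT libraries (Sample_2273_WT to Sample_2277_WT). The ranges overlap in part, with 2 KO libraries below all WT libraries. The means were 28.5 ± 2.64 CPM in KO against 30.7 ± 2.60 CPM in WT (log2 fold change -0.14 ± 0.13, edgeR adjusted p = 0.738). The gene sum was 30.5 ± 2.75 CPM in KO against 33.7 ± 2.03 CPM in WT, 0.876-fold with a 95% interval of 0.737 to 1.04 (edgeR adjusted p = 0.584).

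Cd3d, which encodes the delta chain, had 5 peaks, all tested, and the highest level of the 8 genes per kb of peak (109 CPM per kb). Its strongest peak lies in the 3' UTR (chr9:44986271-44986824) and stood at 72.2 ± 5.61 CPM in KO against 74.6 ± 5.82 CPM in WT (edgeR adjusted p = 0.846). The start-site peak (chr9:44981663-44981859) stood at 20.003 ± 2.305 CPM and 21.2 ± 4.04 CPM (edgeR adjusted p = 0.945). Neither of them passed the test.

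The peak of Cd3d that rose (chr9:44987116-44987323) begins 64 bp past the end of the gene and is annotated as distal intergenic. It read 21.8, 15.1, 21.2, 29.9 and 21.7 CPM in the KO libraries in order and 11.8, 15.0, 10.9, 13.0 and 14.1 CPM in the WT libraries. Every KO library was above every WT library, but Sample_2269_KO at 15.1 CPM and Sample_2274_WT at 15.0 CPM nearly met. The means were 21.9 ± 5.29 CPM and 13.0 ± 1.67 CPM, a 1.77-fold difference (log2 fold change 0.82 ± 0.17, edgeR adjusted p = 0.00066). With libraries merged, the KO units stood at 21.9, 15.0 and 25.3 CPM and the WT units at 13.2 and 13.0 CPM, and the peak still passed (edgeR adjusted p = 0.00293).

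The nearest other Cd3d peak ends 164 bp before the peak that rose, and the 3' end of Cd3e is 11420 bp away. The sum over the 5 Cd3d peaks was 130 ± 8.29 CPM in KO against 126 ± 9.06 CPM in WT (1.03-fold, edgeR adjusted p = 0.873). Without the peak that rose the log2 fold change of the sum was -0.08 (edgeR adjusted p = 0.760), a change of sign between values near 0.

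Cd3e, which encodes the epsilon chain shared by both CD3 dimers, had 9 peaks, 8 of them tested, and 53.1% of its signal lay in promoter peaks. Its start-site peak (chr9:45009224-45009727), the strongest of the gene, read 37.7, 33.9, 56.0, 42.5 and 41.2 CPM in the KO libraries and 36.4, 39.6, 46.0, 45.4 and 40.4 CPM in the WT libraries. The highest and the lowest value both belong to KO libraries, with Sample_2270_KO, the library of lowest total, at the top. The means were 42.3 ± 8.36 CPM and 41.5 ± 4.05 CPM (log2 fold change -0.03 ± 0.11, edgeR adjusted p = 0.954), so the fitted value, which weights libraries by depth, and the difference of the means have opposite signs. The 8 tested peaks ranged from -0.45 to 0.36 in log2 fold change and none passed. The gene sum was 116 ± 7.14 CPM in KO against 117 ± 13.5 CPM in WT (0.982-fold, edgeR adjusted p = 0.942).

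The map of the cluster plots all 16 peaks of the 3 neighbouring genes at their positions.

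**Figure D3:**
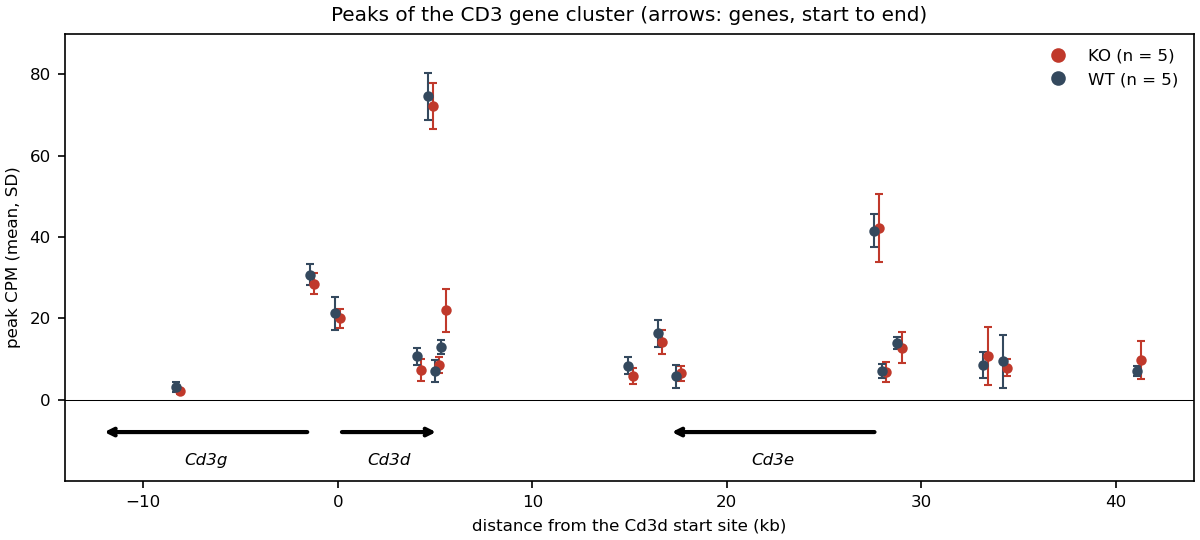
Mean CPM (vertical axis, whiskers SD, n = 5 per group) of the 16 peaks of Cd3g, Cd3d and Cd3e against distance in kb from the Cd3d start site, KO in red and WT in blue, with arrows for the genes from start to end. The 2 colours lie apart beyond their SD at the peak just past the end of Cd3d (21.9 CPM against 13.0 CPM), which is the only peak of the cluster that passed.

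Cd247, which encodes the zeta chain, was the gene with the most peaks (26, of which 19 were tested) and the highest sum. The sum was 312 ± 24.0 CPM in KO against 301 ± 16.8 CPM in WT (1.04-fold, edgeR adjusted p = 0.727). Only 13.2% of its signal lay in promoter peaks. Most of its other peaks lay in introns, and 1 in its first intron, 55857 bp from the start site (chr1:165844538-165844874), was the strongest of the gene in mean level.

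That intronic peak read 38.4, 31.1, 37.8, 38.6 and 29.0 CPM in the KO libraries and 26.6, 27.6, 30.8, 22.0 and 28.1 CPM in the WT libraries. Sample_2272_KO lies among the WT libraries, and the other 4 KO libraries lie above all of them. The means were 35.0 ± 4.598 CPM and 27.0 ± 3.20 CPM, which did not pass (log2 fold change 0.34 ± 0.13, edgeR adjusted p = 0.156). The start-site peak (chr1:165788583-165788844) stood at 28.9 ± 8.29 CPM and 29.0 ± 3.80 CPM (log2 fold change 0.00 ± 0.13, edgeR adjusted p = 0.997). Over the 19 tested peaks the log2 fold change ranged from -0.27 to 0.41.

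Trat1, which encodes the adaptor TRAT1, had 14 peaks, 8 of them tested, and the lowest level per kb of peak (39.6 CPM per kb). It held the largest change of the 8 genes, in a distal intergenic peak (chr16:48671738-48672034) 99922 bp from the start site and 62656 bp past the deposited end of the gene. The annotation pairs each peak with 1 gene by position, which does not show that the peak acts on it. The nearest RefSeq gene body was that of Morc1, 40833 bp away, and that of Trat1 was 58740 bp away.

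This Trat1 peak read 16.7, 18.9, 25.7, 18.4 and 14.9 CPM in the KO libraries and 4.92, 2.00, 2.37, 3.89 and 3.06 CPM in the WT libraries. In reads these are 23, 20, 17, 38 and 33 against 5, 4, 5, 6 and 5, so the WT level rests on few reads. The lowest KO library was above the highest WT library by a wide margin. The means were 18.9 ± 4.10 CPM and 3.25 ± 1.179 CPM, a 5.89-fold difference (log2 fold change 2.56 ± 0.26, edgeR adjusted p = 4.85e-12). Merged, the KO units stood at 19.9, 18.7 and 16.4 CPM and the WT units at 3.84 and 2.22 CPM (edgeR adjusted p = 2.93e-11). The peak passed in each of the 18 other settings in which it was tested.

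The other Trat1 peaks did not pass. The start-site peak (chr16:48771981-48772232), whose sequence is printed above, read 13.8, 14.1, 9.08, 8.69 and 7.70 CPM in the KO libraries and 10.8, 12.5, 9.96, 16.2 and 9.18 CPM in the WT libraries. Of the KO libraries, 3 lie below all WT libraries and the other 2 lie among them (10.7 ± 3.04 CPM and 11.7 ± 2.79 CPM, log2 fold change -0.20 ± 0.22, edgeR adjusted p = 0.788). The strongest Trat1 peak (chr16:48786334-48786629) stood at 17.4 ± 4.75 CPM and 15.5 ± 4.54 CPM (edgeR adjusted p = 0.620). It lies at -14378 bp from the deposited start site (before it), but inside the RefSeq gene body, which reaches to 48810547. Farther out, 2 tested peaks at 144277 bp and 148269 bp lie in introns of Morc1, and neither passed.

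The sum over all Trat1 peaks rose. It read 126, 103, 119, 129 and 122 CPM in the KO libraries and 90.6, 100, 93.4, 98.2 and 109 CPM in the WT libraries. Sample_2269_KO, at 103 CPM, lies below Sample_2277_WT, at 109 CPM, and the other 4 KO libraries lie above all WT libraries. The means differed 1.23-fold, with a 95% interval of 1.11 to 1.36 (log2 fold change 0.30 ± 0.07, edgeR adjusted p = 0.0112).

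Summed without the distal peak that rose, Trat1 had a log2 fold change of 0.11 and did not pass (edgeR adjusted p = 0.586), and its promoter peaks alone gave 0.08 (edgeR adjusted p = 0.949). It also did not pass with DESeq2 (adjusted p = 0.147), with libraries merged (edgeR adjusted p = 0.121) or without Sample_2271_KO (edgeR adjusted p = 0.0770).

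Cd2, the adhesion receptor gene, had 17 peaks, 10 of them tested. The gene sum was 239 ± 13.5 CPM in KO against 223 ± 19.5 CPM in WT (1.06-fold, edgeR adjusted p = 0.597). Its strongest peak lies just downstream of the gene (chr3:101274821-101275177) and stood at 47.9 ± 4.35 CPM and 45.3 ± 7.73 CPM (edgeR adjusted p = 0.789). The start-site peak (chr3:101287880-101287991) read 10.2, 13.2, 12.1, 9.18 and 5.43 CPM in the KO libraries and 14.8, 10.0, 12.3, 13.6 and 10.4 CPM in the WT libraries. Sample_2272_KO had the lowest of these values, and the groups overlap (log2 fold change -0.39 ± 0.23, edgeR adjusted p = 0.472).

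A distal Cd2 peak 54142 bp from the start site (chr3:101233390-101233797) came nearest to the threshold among the 60 tested peaks that did not pass, and it was picked out after its values were seen. It read 37.7, 29.2, 43.9, 28.0 and 31.2 CPM in the KO libraries and 22.6, 29.6, 27.5, 21.4 and 19.6 CPM in the WT libraries. Sample_2274_WT, at 29.6 CPM, lies above 2 KO libraries. The log2 fold change was 0.39 ± 0.13 (edgeR adjusted p = 0.0945), and without Sample_2274_WT it was 0.48 and passed (edgeR adjusted p = 0.0392).

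Cd5, which encodes an inhibitory surface receptor, had 4 peaks, all tested. The peak that rose lies in intron 1 of 10 (chr19:10731981-10732331), 6643 bp from the start site. It read 29.0, 35.8, 33.3, 35.7 and 35.8 CPM in the KO libraries and 26.6, 22.1, 21.8, 24.6 and 17.1 CPM in the WT libraries. All KO libraries were above all WT libraries, with Sample_2268_KO lowest in its group and Sample_2273_WT highest in its own. The means were 33.9 ± 2.95 CPM and 22.4 ± 3.56 CPM, a 1.55-fold difference (log2 fold change 0.64 ± 0.13, edgeR adjusted p = 0.000469). Merged, the KO units stood at 30.8, 35.6 and 35.3 CPM and the WT units at 22.3 and 22.2 CPM (edgeR adjusted p = 0.00441).

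The remaining Cd5 peaks did not pass. The start-site peak (chr19:10738711-10739147), the strongest of the gene, stood at 41.0 ± 7.01 CPM in KO against 35.3 ± 3.66 CPM in WT (log2 fold change 0.17 ± 0.12, edgeR adjusted p = 0.578). A weak peak in intron 5 (chr19:10723740-10723965) stood at 5.27 ± 2.29 CPM and 8.87 ± 2.21 CPM, in the opposite direction (log2 fold change -0.68 ± 0.28, unadjusted p = 0.0184 by edgeR, edgeR adjusted p = 0.219). It was the only one of the 63 peaks lower at an unadjusted p under 0.05, and it was named after its values were seen.

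The Cd5 gene sum read 74.3, 101, 94.7, 91.5 and 87.6 CPM in the KO libraries and 82.8, 71.6, 78.1, 77.0 and 75.1 CPM in the WT libraries. Sample_2268_KO lies below 4 of the WT libraries, and the other KO libraries lie above all of them. The means, 89.8 ± 9.90 CPM and 76.9 ± 4.14 CPM, differed 1.16-fold with a 95% interval of 1.04 to 1.30, which did not pass over all genes (edgeR adjusted p = 0.173). Summed without the intronic peak that rose, the log2 fold change was 0.01 (edgeR adjusted p = 0.996).

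Cd6 lies near Cd5, with start sites 91084 bp apart and another annotated gene between them. It encodes a related receptor that binds ALCAM. It had 11 peaks, 8 of them tested, and none passed. Its start-site peak (chr19:10829894-10830149) stood at 20.5 ± 2.04 CPM in KO against 20.2 ± 2.72 CPM in WT (edgeR adjusted p = 0.921). Its strongest peak, downstream of the gene (chr19:10787442-10787731), stood at 35.0 ± 2.37 CPM and 37.3 ± 4.40 CPM (edgeR adjusted p = 0.893). The gene sum was 125 ± 11.1 CPM and 133 ± 11.8 CPM (0.957-fold, edgeR adjusted p = 0.804).

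The plot of single peaks by library sets each peak that rose beside the start-site peak of its gene.

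**Figure D4:**
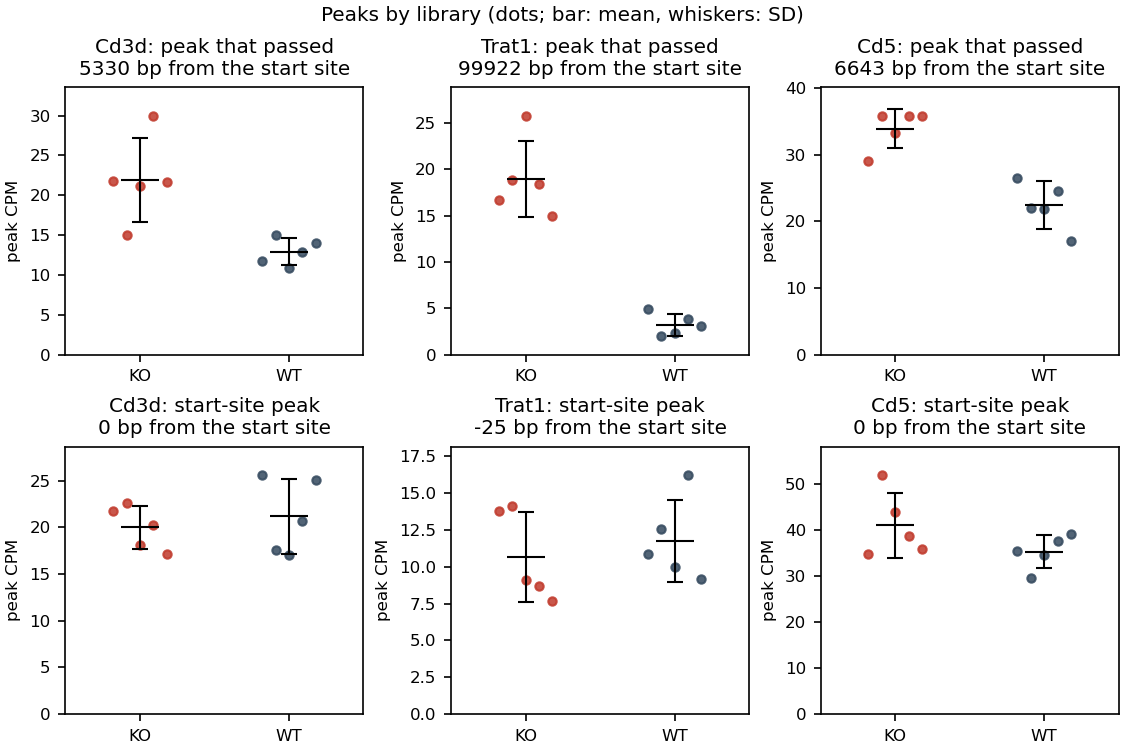
CPM (vertical axis from 0) in the 5 KO and 5 WT libraries for the peak that passed (top row) and the start-site peak (bottom row) of Cd3d, Trat1 and Cd5, with dots for libraries, a bar for the mean and whiskers for the SD. In the top row all KO dots lie above all WT dots (for Trat1, 14.9 to 25.7 CPM against 2.00 to 4.92 CPM), and in the bottom row the groups overlap.

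The genes differed among themselves in where their open chromatin lay. The share of a gene's signal found in promoter peaks ranged from 92.1% in Cd3g, through 53.1% in Cd3e, 45.7% in Cd5 and 36.2% in Cd6 to 17.98% in Trat1, 16.1% in Cd3d, 13.2% in Cd247 and 11.6% in Cd2. Per kb of peak, the mean level over the 10 libraries was 109 CPM for Cd3d, 106 CPM for Cd3g, 78.0 CPM for Cd2, 70.1 CPM for Cd5, 69.9 CPM for Cd6, 68.3 CPM for Cd247, 59.3 CPM for Cd3e and 39.6 CPM for Trat1. In this order Cd3d and Cd3g differ by less than the spread of their sums over libraries, and so do Cd5, Cd6 and Cd247.

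The 60 tested peaks that did not pass ranged from -0.68 to 0.42 in log2 fold change, with a median SE of 0.213. The 25 untested peaks had mean counts of 2.4 to 9.8 reads per library and were left out by edgeR's filter on low counts. This range overlaps that of the tested peaks, which began at 8.4 reads. Without the filter all 88 peaks were tested, and 3 were higher and 0 lower. In bulk chromatin such as this, a change in the share of cells that are open at a peak and a change in how open each cell is cannot be told apart.

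Chromatin near the 8 genes that is annotated to other genes held 1 called peak. Within 100 kb of a start site, 47 of 72 such peaks were tested. They were spread unevenly: 3 of 4 were tested near Cd2 and 0 of 3 near Trat1. No peak of another gene could therefore be assessed near Trat1. By edgeR 1 of the 47 was higher and 0 were lower, where 2.94% and 0.911% of all tested peaks were. Before adjustment 8 were higher and 0 lower at p under 0.05, a count given without a share over all peaks. DESeq2 called 0 of them. The peak lies in an intron of Jaml (chr9:45083180-45083444), which encodes an adhesion molecule of leukocytes, 73722 bp from the start site of Cd3e and 95857 bp from the Cd3d peak that rose. It stood at 15.4 CPM in KO against 5.20 CPM in WT (3.02-fold, edgeR adjusted p = 7.73e-06), and its adjusted p was 0.108 with DESeq2.

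Genes that act with the 8 were read from the same fits, in which 1.65% of all tested genes were higher and 0.52% lower by edgeR. Counts before adjustment are given without a share over all genes. Of 31 tested signalling partners of CD3, 2 were higher and 0 lower by edgeR (3 and 1 before adjustment, and 0 with DESeq2), with a median log2 fold change of 0.01 (0.00 over all tested genes). They were Ptpn22, a phosphatase that dampens receptor signalling (207 ± 16.5 CPM in KO, 168 ± 17.4 CPM in WT, edgeR adjusted p = 0.0158), and Rasa1, a Ras inhibitor (257 ± 26.3 CPM and 218 ± 6.36 CPM, edgeR adjusted p = 0.0301). Sh2d2a, which encodes an adaptor of the kinase Lck, was next at 99.6 ± 8.78 CPM and 115 ± 8.79 CPM and did not pass (edgeR adjusted p = 0.251). Of the 220 tested peaks of these partners, 15 were higher and 0 lower, where 2.94% and 0.911% of all tested peaks were. The Ptpn22 and Rasa1 calls were lost in 8 and 12 of 21 other settings, among them DESeq2, merged libraries and leaving out Sample_2271_KO.

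By edgeR, 1 of 29 tested genes for other T cell surface receptors was higher and 0 were lower. Before adjustment 8 were higher and 0 lower, and DESeq2 called 1 higher. Their median log2 fold change was 0.00. Their 158 tested peaks held 16 higher and 1 lower, where 2.94% and 0.911% of all tested peaks were. Cd53 (edgeR adjusted p = 0.108) and Cd84 (edgeR adjusted p = 0.150), both surface proteins of leukocytes, did not pass. Cd4 itself stood at 78.6 ± 3.498 CPM and 83.2 ± 7.74 CPM (edgeR adjusted p = 0.696).

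Of the ligands of CD2, CD5 and CD6, 4 of 6 were tested and 0 were higher or lower by edgeR or DESeq2, with 0 before adjustment, and 0 of their 7 tested peaks were called. Cd48, the mouse ligand of CD2, stood at 68.0 ± 2.79 CPM in KO against 61.9 ± 5.65 CPM in WT (edgeR adjusted p = 0.516), and Cd59b (12.6 ± 1.96 CPM and 10.1 ± 2.36 CPM) and Cd72 (40.7 ± 4.94 CPM and 38.5 ± 5.00 CPM), the latter a proposed ligand of CD5, did not pass either. Of 18 tested genes for T cell receptor assembly and transport, 1 was higher and 0 lower by edgeR (2 and 3 before adjustment). Among all tested genes 1.65% were higher and 0.52% lower. The median log2 fold change of the list was -0.03. Its 184 tested peaks held 8 higher and 2 lower, where 2.94% and 0.911% of all tested peaks were. The gene of the list that passed was Gata3, a transcription factor of T cell development (343 ± 27.3 CPM and 289 ± 19.9 CPM, edgeR adjusted p = 0.00730). Gata3 did not pass with libraries merged, with libraries thinned to the smallest total or in promoter peaks alone. Tcf7 (394 ± 21.1 CPM and 439 ± 35.1 CPM, edgeR adjusted p = 0.143) and Rhoh (238 ± 8.28 CPM and 264 ± 10.5 CPM, edgeR adjusted p = 0.203) did not pass.

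Over the 10 libraries, the genes whose summed accessibility followed that of Trat1 most closely were Itga2 (Pearson's r = 0.97), Rexo5 (0.94), Mfge8 (0.93), Atp10a (0.93) and Cobll1 (0.93), out of 8829 genes compared. These values describe 10 libraries in 2 groups and carry no test. Of the 5 genes, Itga2 and Rexo5 passed the gene test (edgeR adjusted p = 0.0230 and 9.72e-05), as Trat1 did.

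Markers of other cell types were measured in the same libraries, in which 1.65% of all tested genes were higher and 0.52% lower by edgeR. B cell markers summed to 49.8 to 59.0 CPM in KO and 46.5 to 61.0 CPM in WT, with 0 of 3 tested genes called and no peak for Ms4a1, Pax5, Ebf1, Fcer2a or Ighm. CD8 and cytotoxic markers summed to 871 to 980 CPM and 848 to 962 CPM (0 of 7 called, 2 lower before adjustment, Cd8a and Gzma not tested). NK and innate lymphoid markers summed to 400 to 436 CPM and 379 to 403 CPM (0 of 7 called, 1 higher before adjustment, no peak for Ncr1 or Klra8). Erythroid and stromal markers summed to 243 to 272 CPM and 246 to 271 CPM (0 of 6 called). Counts before adjustment are given without a share over all genes. Myeloid markers summed to 350 to 419 CPM and 335 to 380 CPM (1 of 8 higher, Itgax, no peak for Csf1r, Lyz2 or Zbtb46), and gamma delta markers to 71.7 to 97.7 CPM and 64.1 to 80.9 CPM (1 of 4 higher, Il1r1). Regulatory T cell markers summed to 634 to 739 CPM in KO and 565 to 649 CPM in WT (2 of 7 higher, Ctla4 and Ikzf2, with Foxp3 at 8.02 ± 3.26 CPM and 6.54 ± 1.501 CPM, edgeR adjusted p = 0.498). DESeq2 called 1 of these 7 higher, 0 of the myeloid markers and 0 of the gamma delta markers. Activated and memory markers summed to 986 to 1124 CPM and 953 to 1046 CPM (0 of 8 called by edgeR, 2 higher before adjustment, and 1 higher with limma-voom). The part of such cells in the 3 peaks that rose was not tested.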

How the data were processed

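The authors deposited whole-number read counts, not normalized, for 61581 ATAC-seq peaks shared by the 10 libraries (single reads of 75 bp), and an annotation of the 61571 nuclear peaks in mm10. The submitters' processing notes name, in alphabetical order, bcl2fastq 2.20, Bowtie2 2.3.5, ChIPseeker 1.18.0, deepTools 3.3.0 and 3.5.2, DESeq2 1.22.2, MACS2 2.1.2, Picard, R 3.5.3, SAMtools 1.9 and Trimmomatic 0.36. The treatment of duplicates and of the transposase offset is not given in the sources at hand. Removing duplicates would cap dense peaks in deep libraries.

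Peak counts, and their sums per deposited symbol, were fitted in edgeR 4.0.16 (R 4.3.3; quasi-likelihood, TMM, filterByExpr by group, no covariate), with in-peak totals as library sizes and Benjamini-Hochberg adjustment over all tested features. Each SE is the log2 fold change divided by the root of F. Libraries were judged non-overlapping on log2 CPM with a prior count of 2. Median counts per peak were 5 to 17 by library, so small changes are poorly resolved. The procedure was also run on simulated counts, with an outcome that is not reported here. The simulated libraries were independent, so that run does not cover libraries that may be technical repeats. Alternatives were RLE or no scaling, DESeq2 1.42.0, limma-voom (limma 3.58.1), no filter, a mean count of at least 50, thinning to 673398 reads, leaving out libraries, merging libraries within noise, promoter peaks only and peaks outside promoters. Gene sums without the peaks that passed were added after seeing the data. The 8 genes, the lists and the rule for named items (all 8 genes, peaks that passed, start-site and strongest peaks, up to 3 genes per list, the 5 genes most like the leading one) were chosen with earlier results of these data known. Promoter sequences are from RefSeq. Values of some genes of the lists are not reported here.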

Additional observations from a re-analysis of the deposited data

How the results depend on the processing

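The Trat1 distal peak passed in all 18 other settings tried, and the Cd3d and Cd5 peaks passed in 17 of 18 each, failing when libraries were thinned to the smallest total (edgeR adjusted p = 0.698 and 0.344). The number of peaks of the 8 genes that passed, 3 as reported, was 1 with thinning and 0 with a mean count of at least 50, which left none of the 3 in the test. The number of the 8 genes that passed, 1 as reported, was 0 with DESeq2, with thinning, with libraries merged, with promoter peaks only and without the peaks that passed, and 0 to 1 when single libraries were left out. Over all tested peaks 1344 passed, but 587 with DESeq2, 158 with a mean count of at least 50 and 63 with thinning. Over all tested genes 271 passed, but 109 with DESeq2, 14 with thinning, 159 with libraries merged, 70 with promoter peaks only and 449 with peaks outside promoters. The scalings tried moved the median of all features by under 0.1 on the log2 scale.

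The values that changed sign did not pass in either setting. With thinning the log2 fold change was -0.076 for the Cd3d gene, 0.088 for Cd3e, -0.033 for Cd247, 0.0043 for the Cd3g start-site peak, 0.14 for that of Cd3e, 0.033 for that of Cd247 and 0.052 for that of Cd6. In promoter peaks only it was -0.047 for Cd3d and -0.33 for Cd2, outside promoters it was 0.0015 for Cd6 and 0.037 for Sh2d2a, and without the peak that passed it was -0.075 for Cd3d. With single libraries left out it ranged from -0.063 to 0.015 for the Cd3e gene, from -0.14 to 0.028 for the Cd3d start-site peak, from -0.087 to 0.013 for that of Cd3e and from -0.12 to 0.072 for that of Cd247. No paired analysis was possible because the running numbers of the libraries are not shared between the groups. Depth limits what can be tested: of the peaks of the 8 genes, 24 could be tested with thinning to 673398 reads and 6 with a mean count of at least 50.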
